A study of Homo sapiens with 12 samples.

Results

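Asparagine synthetase (ASNS) and 9 amino acid transporter genes (SLC7A11, SLC7A5, SLC3A2, SLC7A1, SLC1A4, SLC1A5, SLC38A1, SLC38A2 and SLC6A9) were followed through all 4 groups of the study. Their members on the array were taken by name: every probe set annotated to exactly 1 gene symbol, where that symbol was 1 of these 10. This gave 26 of the 54675 probe sets and 10 of the 19775 genes named. A gene was read from its brightest probe set, by the mean of all 12 arrays. It was tested where 3 or more arrays of that set exceeded 4 on the log2 scale, a limit that 9 of the 10 genes and 19 of the 26 probe sets passed; SLC6A9 did not, and its values are given separately.

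The cells were HK-2, an immortalized human line from the renal proximal tubule, the kidney segment that takes amino acids back from the filtrate. They were exposed to a low dose of a compound labelled Ota for 24 h or 72 h, or to its vehicle (control cells) for 24 h or 72 h, with 3 biological replicates in each of the 4 groups. The labels neither spell out Ota nor give the amount. All groups, controls included, were seeded the day before exposure, were treated close to confluence, and grew in a DMEM and Ham's F12 mixture with EGF, hydrocortisone, insulin, transferrin, selenite and Glutamax, a stabilised form of glutamine; renewal of the medium before 72 h is not described in the labels. Values are log2 GCRMA intensities of Affymetrix arrays, so a difference of 1 is a doubling, and levels of different probe sets are not comparable with each other.

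Cells short of amino acids raise a common set of transporters and synthetic enzymes. Uncharged tRNA activates the kinase GCN2 (EIF2AK4), which phosphorylates the translation factor subunit EIF2S1; general translation slows, while translation of the transcription factor ATF4 increases. ATF4 pairs with C/EBP proteins on short promoter elements (C/EBP-ATF response elements) of ASNS, SLC7A11, SLC7A5 and other transporter genes, and the kinase PERK (EIF2AK3) feeds into the same route when proteins misfold in the endoplasmic reticulum. SLC7A11 is also a known target of NRF2 (NFE2L2), which binds antioxidant response elements.

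Promoter sequences of these genes were looked up. Several of them are known targets of ATF4, as described above, so a frequent C/EBP-ATF core among them could be foreseen. RefSeq windows (assembly GRCh38.p14) from 250 bases before to 50 bases after a start site were used for 9 of the 10 genes, all but SLC7A11, 16 windows in all. Both strands were searched for the core of the C/EBP-ATF element, TGATGNAA, and for the core of the antioxidant response element, TGACNNNGC. SLC3A2 and SLC7A1 held both in the same window, and the matches did not overlap. SLC1A5 held them in different windows. TGATGNAA was found in 6 windows of 6 genes, against 3.62% of the 35116 windows and 4.46% of the 27305 genes in the whole table. TGACNNNGC was found in 4 windows of 4 genes (SLC7A5, SLC3A2, SLC7A1 and SLC1A5), against 13.3% of windows and 16.1% of genes. The members had more windows per gene than the whole table, so the shares of genes are not on equal terms. A match is a run of letters, not a measured binding site. ASNS, SLC3A2 and SLC1A5 held TGATGNAA and were called lower in Ota cells at 72 h (below). SLC7A1, SLC1A4 and SLC38A1 held it and were not called, SLC7A5 was called without it, and SLC38A2 had neither. The 6 stretches with TGATGNAA are printed on the strand that carries the match, with the match in capitals.
ASNS (chr7:97872458-97872487, minus strand): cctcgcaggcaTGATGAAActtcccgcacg
SLC3A2 (chr11:62881719-62881748, minus strand): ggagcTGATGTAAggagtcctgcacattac
SLC7A1 (chr13:29595663-29595692, minus strand): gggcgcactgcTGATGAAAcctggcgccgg
SLC1A4 (chr2:64989381-64989410, minus strand): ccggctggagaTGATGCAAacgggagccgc
SLC1A5 (chr19:46784893-46784922, minus strand): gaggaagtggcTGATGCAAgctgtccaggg
SLC38A1 (chr12:46266502-46266531, minus strand): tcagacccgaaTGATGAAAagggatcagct

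Positions count from the start site of the window that held the match, with +1 at that site and -1 just before it. ASNS, SLC3A2, SLC1A4, SLC1A5 and SLC38A1 each had other windows, at other start sites, without a match to TGATGNAA. In SLC1A5 the matching window (chr19:46784765-46785064) was the most downstream, and those at 46787244-46787543 and 46788545-46788844 held none. The match lay at -68 to -61 in ASNS and at -97 to -90 in SLC1A5, both upstream of that start site and on the strand of the gene. It spanned the start site in SLC38A1 (-4 to 4) and, on the opposite strand, in SLC1A4 (-7 to 1). In SLC7A1 (8 to 15) and, on the opposite strand, in SLC3A2 (38 to 45) it lay after the start. No match to TGATGNAA was found in the windows of SLC7A5, SLC38A2 and SLC6A9. The 250 bases before the start site of the ASNS window with the match are shown in full on the strand of the gene. ASNS was chosen because it had the largest difference at 72 h among the tested genes named above.
ASNS (chr7:97872409-97872658, minus strand): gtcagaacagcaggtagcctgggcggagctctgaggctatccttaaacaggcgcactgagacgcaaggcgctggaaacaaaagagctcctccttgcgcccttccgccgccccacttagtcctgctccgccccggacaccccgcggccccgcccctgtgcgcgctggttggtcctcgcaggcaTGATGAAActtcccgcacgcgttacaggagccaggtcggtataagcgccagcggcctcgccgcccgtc

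The 12 arrays were alike within groups, with correlations of 0.986 to 0.994 over the 10699 genes tested, each read from its brightest probe set. The signal of the actin 3′ probe set over its 5′ probe set, a sign of RNA integrity, was 1.17 ± 0.12 in Ota cells and 1.01 ± 0.21 in control cells at 24 h, and 1.28 ± 0.08 in Ota cells and 1.18 ± 0.17 in control cells at 72 h (log2, SD, n = 3 each). Of 14 proximal tubule marker genes only SLC3A1, a partner of apical cystine transport, passed the limit of 4, and the medians of that list lay between 2.39 and 2.48 in the 4 groups. Apical amino acid transporters of the tubule, SLC7A9, SLC6A19 and SLC6A18, lay below the limit on every array. No distal nephron, endothelial or leukocyte marker with a single-symbol probe set passed it, while 3 of 6 fibroblast markers (COL1A1, DCN, LUM) and 3 of 5 podocyte markers did.

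At 72 h, 5 of the 9 tested genes were lower in Ota cells than in control cells: ASNS, SLC3A2, SLC7A11, SLC7A5 and SLC1A5, by 1.37-fold to 2.19-fold. None was higher. The differences of SLC7A1, SLC1A4, SLC38A1 and SLC38A2 did not pass the test. At 24 h none of the 9 passed. Between 24 h and 72 h all 9 rose, in Ota cells and in control cells alike, so the lower values of Ota cells at 72 h stood above the 24 h values of either group.

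Against the whole array, 5 of 9 genes called lower at 72 h compares with 14.9% of the 10699 genes tested, and 0 of 9 called higher with 17.1%, out of 32% called in either direction (limma, Benjamini-Hochberg adjusted p below 0.05). The 5 called genes were also those whose 3 Ota arrays all lay below the 3 control arrays, which was so for 25.3% of all genes. The median log2 difference of the members at 72 h was -0.46, against 0.01 over all genes. At 24 h the 0 of 9 compares with 31% called in either direction, 9.44% higher and 21.6% lower, and 3 of 9 with all Ota arrays below all control arrays compares with 27.3%. The median at 24 h was -0.13 for the members and -0.06 for all genes. When the arrays were shifted to a common median of the genes tested, an alternative chosen after seeing the data, the 24 h median of all genes became 0.07 and its calls were 1881 higher and 1694 lower, against 1010 higher and 2307 lower without the shift. These are bulk RNA values, so less RNA per cell and fewer cells that express a gene cannot be told apart.

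**Figure D1:**
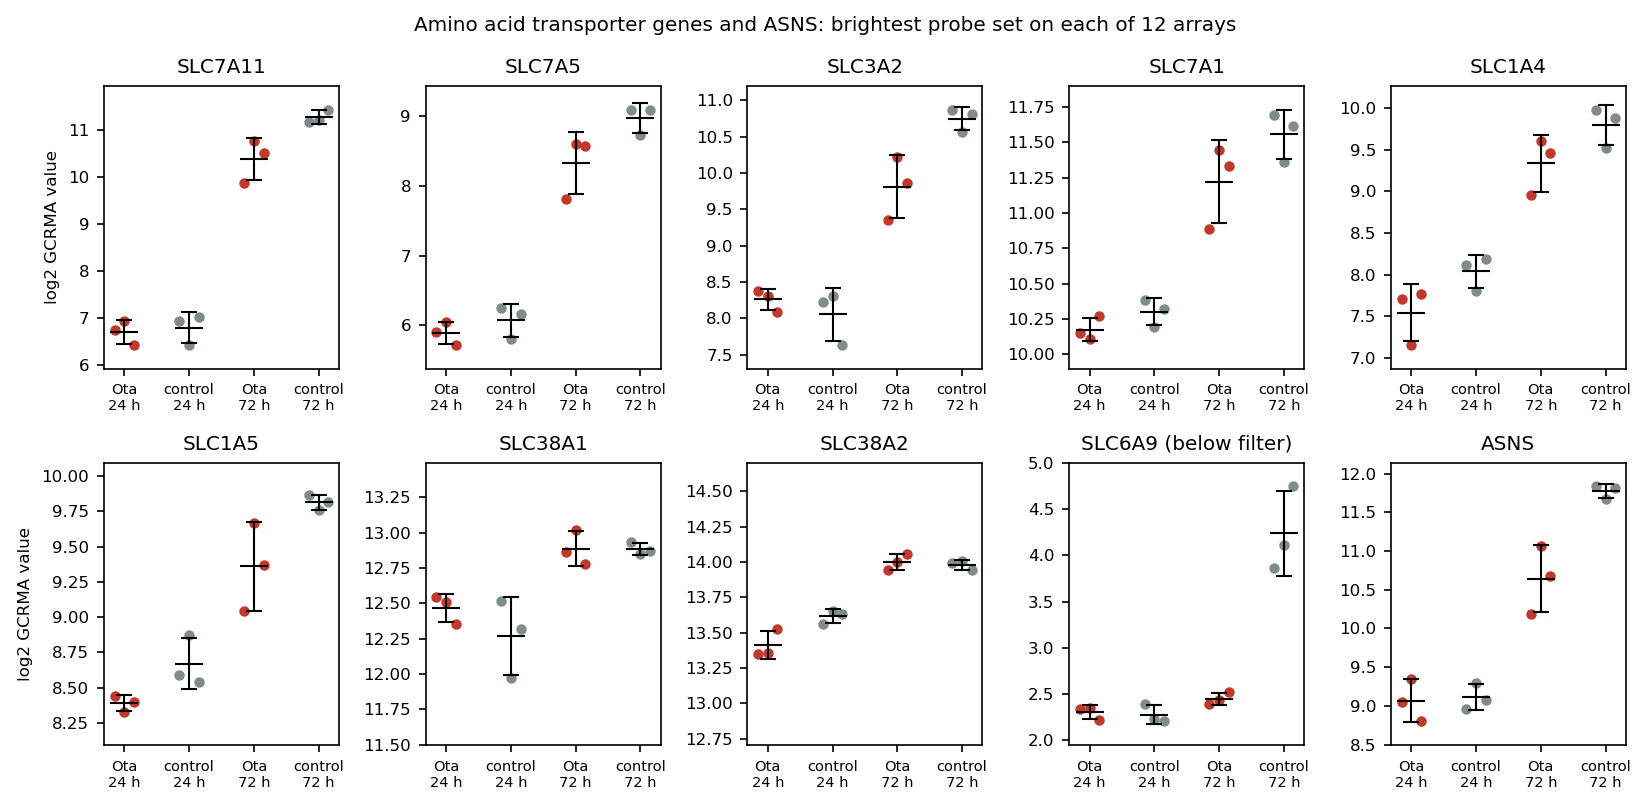
Log2 GCRMA value (vertical axis, a separate scale in each panel) of the brightest probe set of each gene on each of the 12 arrays, with the mean and SD of 3 arrays per group. For ASNS, SLC3A2, SLC7A11, SLC7A5 and SLC1A5 the 3 Ota arrays at 72 h lie below the 3 control arrays at 72 h, and every 72 h array of the 9 tested genes lies above the 24 h arrays of its own treatment.

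ASNS makes asparagine from aspartate and glutamine and is the standard reporter of the amino acid response. At 72 h its probe set 205047_s_at read 10.19, 11.07 and 10.67 in Ota cells, against 11.84, 11.67 and 11.82 in control cells. All 3 Ota arrays were lower, and the control arrays lay close together. The log2 difference was -1.13 ± 0.20 (SE; adjusted p = 0.0015), which is 2.19-fold lower, and it ranked 183 from the lowest of the 10699 differences. At 24 h ASNS read 9.05, 9.35 and 8.80 in Ota cells, against 8.97, 9.30 and 9.07 in control cells, and the groups overlapped (-0.04 ± 0.20, 95% interval -0.48 to 0.40, adjusted p = 0.897). The order of the levels was therefore control at 72 h, Ota at 72 h and then the 24 h groups, which did not differ beyond their spread. The second ASNS probe set, 241082_at, stayed between 2.65 and 2.74 on every array, at the floor of these values.

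SLC7A11 is the light chain of the cystine and glutamate exchanger, SLC7A5 the light chain of a carrier of leucine and other large neutral amino acids, and SLC3A2 the heavy chain that brings both to the membrane. SLC7A11 (217678_at) read 9.87, 10.76 and 10.52 in Ota cells at 72 h, against 11.17, 11.21 and 11.44 in control cells. The difference was -0.89 ± 0.23 (adjusted p = 0.0118), or 1.85-fold lower, without overlap. Its next probe set, 209921_at, read 8.66, 9.54 and 9.66 in Ota cells, against 10.28, 10.14 and 10.43 in control cells, and gave -1.0 ± 0.22 (adjusted p = 0.00694 over probe sets). Both sets thus placed every Ota array under every control array. The third SLC7A11 set, 207528_s_at, was above 4 on 2 arrays only, 4.29 in Ota replicate 2 and 4.10 in control replicate 1 at 72 h, and was not tested.

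SLC3A2 (200924_s_at) read 9.36, 10.22 and 9.86 in Ota cells at 72 h, against 10.87, 10.57 and 10.81 in control cells. It was 1.92-fold lower (-0.94 ± 0.22, adjusted p = 0.00744). SLC7A5 (201195_s_at) read 7.82, 8.60 and 8.58 in Ota cells, against 9.10, 8.73 and 9.10 in control cells. It was 1.56-fold lower (-0.64 ± 0.21, adjusted p = 0.0348), without overlap. The heavy chain and both light chains were thus lower together at 72 h.

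At 24 h the 3 genes showed no called difference. SLC7A11 read 6.74, 6.94 and 6.43 in Ota cells, against 6.93, 6.42 and 7.02 in control cells (-0.09 ± 0.23, 95% interval -0.59 to 0.41, adjusted p = 0.801). SLC7A5 read 5.91, 6.05 and 5.72 in Ota cells, against 6.25, 5.80 and 6.17 in control cells (-0.18 ± 0.21, adjusted p = 0.556). SLC3A2 read 8.38, 8.30 and 8.09 in Ota cells, against 8.22, 8.31 and 7.63 in control cells (0.20 ± 0.22, adjusted p = 0.526). The arrays of Ota and control cells overlapped for each of the 3, and each had its highest level in control cells at 72 h, followed by Ota cells at 72 h.

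SLC7A1 carries the cationic amino acids arginine, lysine and ornithine into the cell. Its probe set 212295_s_at read 10.89, 11.44 and 11.33 in Ota cells at 72 h, against 11.69, 11.36 and 11.61 in control cells. The groups overlapped, and the difference did not pass (-0.34 ± 0.14, 95% interval -0.65 to -0.03, adjusted p = 0.0928); without Ota replicate 2 at 72 h it was -0.45 and passed (adjusted p = 0.0437), and without Ota replicate 1 at 72 h it was -0.17 and did not (adjusted p = 0.342). At 24 h it read 10.15, 10.10 and 10.27 in Ota cells, against 10.38, 10.20 and 10.32 in control cells (-0.13 ± 0.14, adjusted p = 0.549). The sets 212290_at and 212292_at gave -0.15 and -0.31 at 72 h, neither called, and 2 further sets, 215979_s_at and 206566_at, stayed between 2.32 and 3.67, below the limit.

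SLC1A4 and SLC1A5 exchange small neutral amino acids, alanine, serine and cysteine for SLC1A4 and glutamine above all for SLC1A5. SLC1A5 (208916_at) read 9.04, 9.67 and 9.37 in Ota cells at 72 h, against 9.86, 9.76 and 9.81 in control cells. It was 1.37-fold lower (-0.45 ± 0.14, adjusted p = 0.0327), with an SD of 0.32 among Ota arrays and 0.05 among control arrays. At 24 h it read 8.44, 8.33 and 8.40 in Ota cells, against 8.59, 8.88 and 8.54 in control cells; the arrays did not overlap, and the difference did not pass (-0.28 ± 0.14, adjusted p = 0.167).

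SLC1A4 (209610_s_at) read 8.95, 9.60 and 9.45 in Ota cells at 72 h, against 9.98, 9.52 and 9.88 in control cells (-0.46 ± 0.21, adjusted p = 0.115). Its Ota replicate 2 lay above control replicate 2, so the groups overlapped. The set 212811_x_at of the same gene, tested among all probe sets, did pass at 72 h, with 8.63, 9.05 and 8.90 in Ota cells, against 9.74, 9.06 and 9.60 in control cells (-0.61 ± 0.19, adjusted p = 0.0349), while 212810_s_at (-0.23) and 209611_s_at (-0.12) did not. At 24 h SLC1A4 read 7.71, 7.16 and 7.77 in Ota cells, against 8.12, 7.81 and 8.19 in control cells, without overlap (-0.49 ± 0.21, adjusted p = 0.0952). Neither difference was called, and each moved with 1 array: it was -0.27 at 72 h without Ota replicate 1 of that time (adjusted p = 0.385) and -0.30 at 24 h without Ota replicate 2 of that time (adjusted p = 0.332). The fifth SLC1A4 set, 244377_at, stayed between 2.49 and 3.69.

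SLC38A1 and SLC38A2 take up glutamine, alanine and other small neutral amino acids together with sodium, and SLC38A2 is known to be raised by amino acid shortage. Neither had a called difference between Ota and control cells at 72 h, and the intervals were narrow. SLC38A1 (224579_at) read 12.86, 13.02 and 12.78 in Ota cells, against 12.93, 12.85 and 12.87 in control cells (0.00 ± 0.13, 95% interval -0.28 to 0.28, adjusted p = 0.994). SLC38A2 (222982_x_at) read 13.94, 14.00 and 14.06 in Ota cells, against 13.99, 14.00 and 13.94 in control cells (0.02 ± 0.08, 95% interval -0.15 to 0.20, adjusted p = 0.874). These intervals leave out a difference of the size seen for ASNS, SLC3A2 or SLC7A11.

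At 24 h SLC38A2 read 13.35, 13.36 and 13.52 in Ota cells, against 13.56, 13.66 and 13.63 in control cells, and SLC38A1 read 12.54, 12.51 and 12.35 in Ota cells, against 12.52, 11.97 and 12.32 in control cells. The SLC38A2 arrays did not overlap, but its difference did not pass (-0.21 ± 0.08, adjusted p = 0.0723); without Ota replicate 3 at 24 h it was -0.26 and passed (adjusted p = 0.0401). Its other sets, 218041_x_at and 220924_s_at, both gave -0.33 and passed among all probe sets (adjusted p = 0.0234 and 0.0275). SLC38A1 differed by 0.20 ± 0.13 (adjusted p = 0.277), and of its other sets 224580_at passed as higher (0.35 ± 0.12, adjusted p = 0.0391) and 218237_s_at, at 0.13, did not. The probes of sets whose name ends in x_at can match other transcripts. The set 236857_at of SLC38A1 stayed at 2.28 to 2.32.

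SLC6A9 is a sodium-coupled glycine transporter. Its probe set, 207043_s_at, was above 4 on 2 of the 12 arrays, both of control cells at 72 h, and so was left out of the tests. It read 2.39, 2.44 and 2.52 in Ota cells at 72 h, against 3.86, 4.11 and 4.75 in control cells at 72 h. At 24 h it read 2.34, 2.35 and 2.22 in Ota cells, against 2.39, 2.23 and 2.20 in control cells. The control arrays at 72 h thus stood apart from the other 9, which lay near the floor of the values. In a fit with no filter on low values it was lower in Ota cells at 72 h by 1.79 ± 0.19 on the log2 scale (adjusted p = 0.000437) and showed no called difference at 24 h (0.03 ± 0.19, adjusted p = 0.930). A fold against a level near the floor is uncertain in size.

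**Figure D2:**
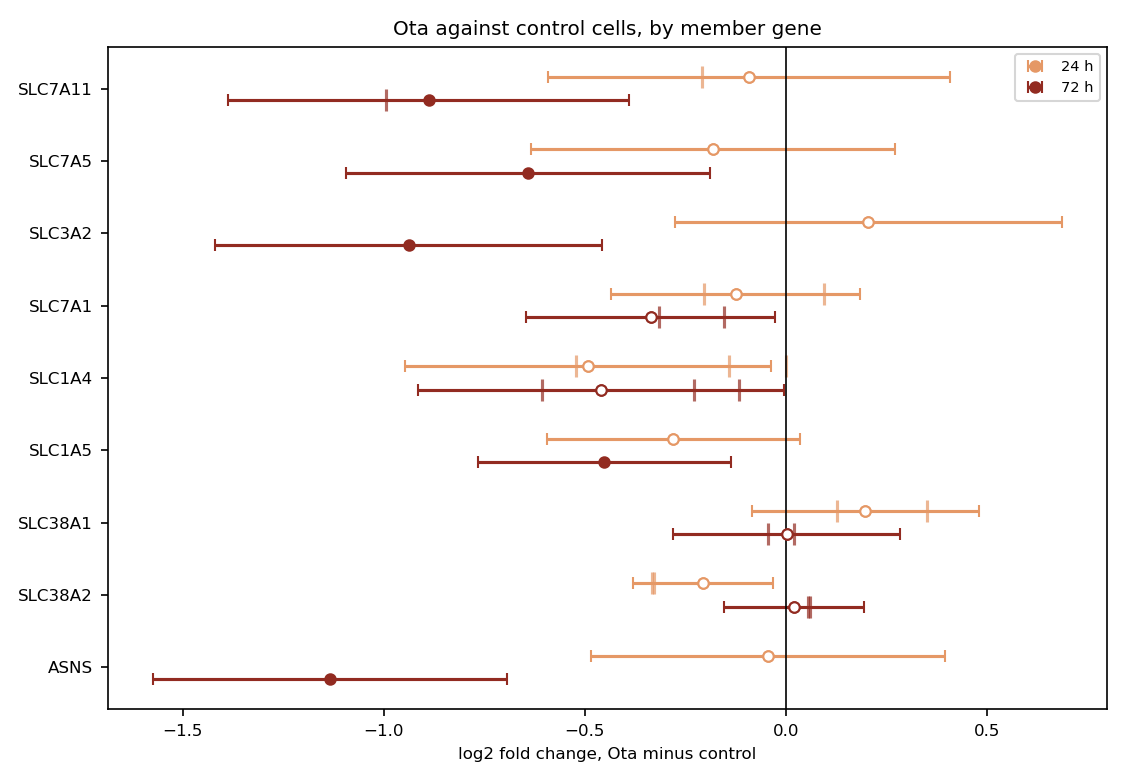
Log2 difference of Ota against control cells at 24 h and 72 h for the 9 tested genes (horizontal axis), with 95% intervals; filled points passed an adjusted p of 0.05 and short ticks are the other tested probe sets of the gene. The 72 h points of ASNS, SLC3A2, SLC7A11, SLC7A5 and SLC1A5 are filled and lie left of 0, and those of SLC38A1 and SLC38A2 lie at 0.

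Of the 19 tested probe sets, 7 were lower at 72 h, against 11.8% of the 22477 probe sets tested: the tested set of each of ASNS, SLC3A2, SLC7A5 and SLC1A5, both of SLC7A11 and 1 of 4 of SLC1A4. At 24 h 2 of the 19 were lower, both of SLC38A2, against 18.1%, and 1 was higher, of SLC38A1, against 12.9%. Ota replicate 1 at 72 h had the lowest value of the 3 Ota arrays for 8 of the 9 genes, all but SLC38A1. Without it, ASNS (-0.91, adjusted p = 0.00503), SLC3A2 (-0.71, adjusted p = 0.0299) and SLC7A11 (-0.63, adjusted p = 0.0442) were still called lower. SLC7A5 (-0.39, adjusted p = 0.121) and SLC1A5 (-0.29, adjusted p = 0.126) were then not called.

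The calls of SLC7A5 and SLC1A5 at 72 h were also lost in other ways. SLC7A5 was not called without control replicate 1 or 3 at 72 h (-0.58 each, adjusted p = 0.105 and 0.107). SLC1A5 was not called without Ota replicate 3 at 72 h (-0.46, adjusted p = 0.0732) or without control replicate 1 (-0.43, adjusted p = 0.0901), 2 (-0.48, adjusted p = 0.0570) or 3 (-0.45, adjusted p = 0.0787) at 72 h. A fit on the 72 h arrays alone lost both (adjusted p = 0.0683 for SLC7A5 and 0.0624 for SLC1A5), as did a fit with no filter on low values (adjusted p = 0.0976 and 0.0739).

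Whether the Ota difference itself changed between 24 h and 72 h was tested as the 72 h difference minus the 24 h difference. It was called for 2 of the 9 genes, both lower, ASNS (-1.09 ± 0.28, adjusted p = 0.0199) and SLC3A2 (-1.14 ± 0.31, adjusted p = 0.0234), against 5.79% of all genes called lower and 15.5% called higher. With the arrays shifted to a common median of the genes tested, 1164 genes were called higher and 1187 lower, against 1659 higher and 619 lower without the shift, and ASNS and SLC3A2 stayed called. For SLC7A11 it was -0.80 ± 0.32 (95% interval -1.50 to -0.09, adjusted p = 0.101) and for SLC7A5 -0.46 ± 0.29 (adjusted p = 0.289), so a change of the Ota difference with time was not shown for the light chains. For SLC38A2 it was 0.23 ± 0.11 (adjusted p = 0.178), and for SLC1A4 0.03 ± 0.29 (adjusted p = 0.949). Among the 19 probe sets the same 2 genes' sets were called lower, against 5.77%. The SLC3A2 call was lost without Ota replicate 1 at 24 h (-1.08, adjusted p = 0.0525) and without control replicate 1 (-1.08, adjusted p = 0.0552) or 3 (-1.11, adjusted p = 0.0505) at 72 h, and with no filter on low values both calls were lost (adjusted p = 0.0606 for ASNS and 0.0727 for SLC3A2).

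For each of the 9 genes the change between the times was larger in both treatments than its Ota difference at 72 h. From the arrays already given, all 9 genes were higher at 72 h than at 24 h in Ota cells, against 22.2% of all genes called higher and 9.99% called lower, and all 9 in control cells, against 22.7% higher and 23.6% lower. In both treatments the 72 h arrays of all 9 lay above the 24 h arrays, as did 31.4% of all genes in Ota cells and 27.1% in control cells. The median log2 difference over time was 1.55 for the members in Ota cells, against 0.08 for all genes, and 1.76 for the members in control cells, against 0.00 for all genes. Under the same shift the calls in Ota cells were 1666 higher and 2008 lower, against 2378 higher and 1069 lower without it, and 8 of the 9 members stayed called higher, all but SLC38A1 (adjusted p = 0.0811). Exposure time and time in culture cannot be told apart within a treatment.

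SLC7A11 had the largest change over time of the members, 12.8-fold higher at 72 h than at 24 h in Ota cells (3.68 ± 0.23, adjusted p = 5.43e-06) and 22.3-fold in control cells (4.48 ± 0.23, adjusted p = 3.06e-07). It was the 4th largest rise of the 10699 genes in Ota cells and the 5th largest in control cells. SLC7A5 rose by 2.44 in Ota cells and 2.9 in control cells, SLC3A2 by 1.55 in Ota cells and 2.70 in control cells, and ASNS by 1.58 in Ota cells and 2.67 in control cells. SLC1A4 rose nearly alike, by 1.79 in Ota cells and 1.76 in control cells. The smallest rises were those of SLC7A1 (1.05 in Ota cells, 1.26 in control cells), SLC1A5 (0.97 in Ota cells, 1.14 in control cells), SLC38A2 (0.59 in Ota cells, 0.36 in control cells) and SLC38A1 (0.42 in Ota cells, 0.62 in control cells).

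Every rise was called at an adjusted p of 0.00298 or lower, save that of SLC38A1 in Ota cells (adjusted p = 0.0278). That call was lost without Ota replicate 2 (0.44, adjusted p = 0.0579) or 3 (0.36, adjusted p = 0.0827) at 24 h and without Ota replicate 1 (0.43, adjusted p = 0.0614) or 2 (0.35, adjusted p = 0.10) at 72 h. Of the 19 probe sets, 17 were higher at 72 h in Ota cells, against 17.7% of all probe sets, and 19 in control cells, against 20.2%. The 2 not called in Ota cells were 212292_at of SLC7A1 (0.32) and 224580_at of SLC38A1 (0.23). The Ota and control changes over time and the 72 h comparison share arrays, so they are not independent of each other. Without a filter, SLC6A9 was higher at 72 h than at 24 h by 0.15 in Ota cells (adjusted p = 0.555) and by 1.96 in control cells (adjusted p = 0.000102).

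**Figure D3:**
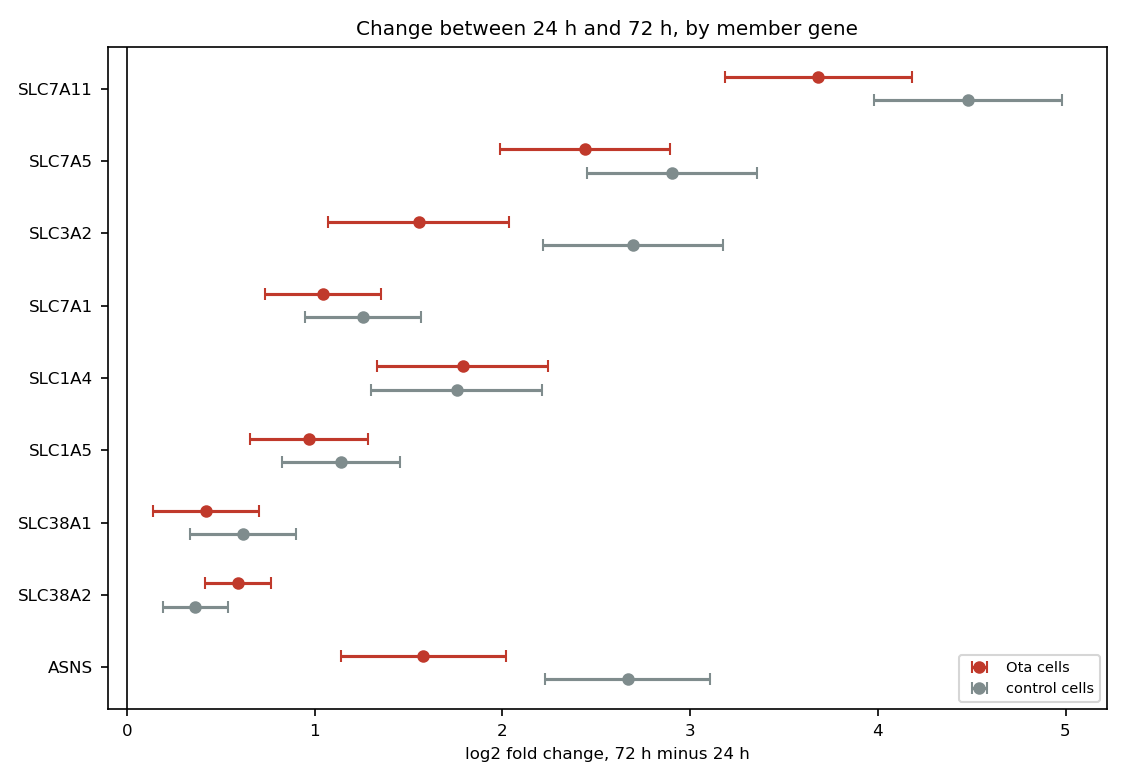
Log2 difference of 72 h against 24 h (horizontal axis) in Ota cells and in control cells for the 9 tested genes, with 95% intervals. All points lie right of 0, SLC7A11 lies farthest right at 3.68 in Ota cells and 4.48 in control cells, and the widest gap between the treatments is that of SLC3A2 and ASNS.

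Regulators of the amino acid response were lower or not called at 72 h. Of 18 regulator genes, all tested, 9 were lower in Ota cells at 72 h and 0 were higher, with a median of -0.40, against 14.9% lower, 17.1% higher and a median of 0.01 over all genes. With no filter on low values 5 were lower and 1 was higher. ATF4, the transcription factor of the response, read 12.81, 13.29 and 13.07 in Ota cells at 72 h, against 13.64, 13.79 and 13.68 in control cells (-0.65 ± 0.12, adjusted p = 0.00153). The groups were far apart compared with their spread. DDIT3, the stress transcription factor CHOP, read 11.31, 12.14 and 12.32 in Ota cells, against 12.46, 12.44 and 12.75 in control cells (-0.63 ± 0.21, adjusted p = 0.0407), and TRIB3, a pseudokinase that restrains ATF4, read 12.01, 12.81 and 12.59 in Ota cells, against 13.10, 13.08 and 13.20 in control cells (-0.65 ± 0.16, adjusted p = 0.0101). For both, Ota replicate 1 was lowest, as for the transporters.

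CEBPD, a C/EBP transcription factor, was lower by 0.66 in Ota cells at 72 h (adjusted p = 0.000515). Its other tested set was higher by 0.61, and the mean of both did not pass (-0.03, adjusted p = 0.885). IMPACT, an inhibitor of GCN2 activation, was lower by 0.68 on its brightest set (adjusted p = 0.00142). Its other set gave -0.38 with overlapping arrays and was not called (adjusted p = 0.190 over probe sets). EIF2AK4, the kinase GCN2 itself, differed by 0.12 ± 0.18 at 72 h (adjusted p = 0.642). The DDIT3 call at 72 h was lost in 8 of 21 alternatives, among them the fit without Ota replicate 1 at 72 h (-0.32, adjusted p = 0.0895), while ATF4 and TRIB3 kept theirs in all 21.

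At 24 h, 5 of the 18 regulators were lower and 1 was higher, with a median of -0.18, against 21.6% lower, 9.44% higher and a median of -0.06 over all genes. TRIB3 read 10.30, 10.49 and 10.40 in Ota cells, against 11.16, 11.18 and 11.17 in control cells, and was lower by 0.77 ± 0.16 (log2, adjusted p = 0.00387); its other set was lower by 1.13. CEBPD was lower by 1.07 ± 0.10 (adjusted p = 1.76e-05) on its brightest set and differed by 0.01 on the other. EIF2S1 was lower by 0.43 on its brightest set (adjusted p = 0.0063) and higher by 0.63 and 0.71 on its other sets, so it has no settled direction. ATF4 read 11.97, 11.94 and 11.98 in Ota cells, against 12.20, 12.32 and 12.10 in control cells, all lower but not called (-0.24 ± 0.12, adjusted p = 0.136), and neither DDIT3 (-0.42, adjusted p = 0.16) nor EIF2AK4 (0.36, adjusted p = 0.159) was called.

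Over time, 11 of the 18 regulators were higher and 3 lower at 72 h in Ota cells, and 11 were higher and 4 lower in control cells. Over all genes, 22.2% were higher and 9.99% lower in Ota cells, and 22.7% were higher and 23.6% lower in control cells. DDIT3 rose by 5.03 in Ota cells and 5.24 in control cells on the log2 scale, ATF4 by 1.09 in Ota cells and 1.5 in control cells, and TRIB3 by 2.07 in Ota cells and 1.95 in control cells. The rise of the members with time came with a rise of these 3 regulators in both treatments. EIF2AK4 did not rise: it differed by -0.51 in Ota cells (adjusted p = 0.0481, called lower) and by -0.28 in control cells (adjusted p = 0.228). NFE2L2 rose by 0.64 in Ota cells and 0.78 in control cells. A link between the members and any of these genes was not tested.

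Other amino acid transporters did not move in 1 direction. Of 33 listed, 32 had a single-symbol probe set and 18 passed the limit. At 72 h 6 were higher in Ota cells and 3 lower, with a median of -0.02, against 17.1% higher, 14.9% lower and a median of 0.01 over all genes. At 24 h 2 were higher and 5 lower, with a median of -0.10, against 9.44% higher, 21.6% lower and a median of -0.06 over all genes. SLC6A20, a proline carrier, was higher by 0.99 ± 0.14 at 72 h (adjusted p = 0.000385), and its other set by 1.08. SLC6A6, the taurine carrier, was higher by 0.70 ± 0.11 (adjusted p = 0.000756), but its other sets gave 0.61 and -0.27 and were not called. Both were low at 72 h, at 4.15 and 2.19 in Ota cells against 3.54 and 2.46 in control cells. The mean of the SLC6A6 sets did not pass (0.20, adjusted p = 0.223). SLC6A15, a carrier of branched-chain amino acids and proline, was lower by 0.65 at 72 h (adjusted p = 0.00107) and by 0.51 at 24 h (adjusted p = 0.00421) on its brightest set. The mean of its sets did not pass at 72 h (-0.39, adjusted p = 0.0820). Its other sets differed at 72 h by -1.05, -0.39 and 0.18, none called. At 24 h the first differed by -1.68 (adjusted p = 0.0239) and the second by -0.54 (adjusted p = 0.0356), both called, and the last by 0.16, not called. The first read 2.58 in Ota cells, near the floor, and 4.26 in control cells at 24 h, so the size of its difference is uncertain.

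At 24 h the smallest p-values among these transporters were those of SLC36A1, a proton-coupled carrier of small amino acids on lysosomes and the cell surface, and of SLC7A7, a light chain that exports cationic amino acids with SLC3A2. SLC36A1 was lower in Ota cells by 1.15 (adjusted p = 0.000162) and SLC7A7 was lower by 0.93 (adjusted p = 0.00100). At 72 h SLC36A1 differed by -0.15 (adjusted p = 0.465) and SLC7A7 by -0.30 (adjusted p = 0.164).

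Enzymes of aspartate, asparagine and glutamine use were split as well. Of 15 tested, 4 were higher and 3 lower at 72 h, with a median of 0.01, against 17.1% higher and 14.9% lower over all genes. At 24 h 1 was higher and 4 lower, with a median of -0.03, against 9.44% higher and 21.6% lower over all genes. ASRGL1, which breaks asparagine down, was higher by 1.25 ± 0.13 at 72 h (adjusted p = 5.81e-05), the opposite direction to ASNS. PYCR1, which makes proline, was lower by 1.11 (adjusted p = 0.000179) and CTPS1, which uses glutamine to make CTP, was higher by 0.72 (adjusted p = 0.00281). At 24 h ASL, which splits argininosuccinate, was lower in Ota cells by 1.40 (adjusted p = 4.66e-05) and CTPS1 was lower by 0.88 (adjusted p = 0.000766). GMPS, which uses glutamine to make GMP, was lower by 0.73 on its brightest set (adjusted p = 0.000193), while its other sets were higher by 0.97 and 0.83.

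Genes of cystine use and glutathione, the downstream side of SLC7A11, had 13 tested members. At 72 h 3 were higher and 2 lower, with a median of -0.10, against 17.1% higher and 14.9% lower over all genes. At 24 h 1 was higher and 2 lower, with a median of -0.15, against 9.44% higher and 21.6% lower over all genes. CBS, which makes the cysteine precursor cystathionine, was lower in Ota cells by 1.51 at 24 h (adjusted p = 4.21e-05) and by 0.96 at 72 h (adjusted p = 0.000999). GSR, which regenerates reduced glutathione, was higher by 0.44 at 24 h (adjusted p = 0.00662) and by 0.54 at 72 h (adjusted p = 0.00228), though its other set differed by 0.01 at 24 h and the mean of both did not pass there (0.23, adjusted p = 0.218). ACSL4, a lipid enzyme linked to ferroptosis, was higher by 1.37 at 72 h on its brightest set (adjusted p = 7.44e-05). Its other set gave -0.15, at low levels of 3.64 in Ota cells and 3.78 in control cells. GSS, the last enzyme of glutathione synthesis, differed by -0.29 at 24 h (adjusted p = 0.0412), a call lost in 13 of 21 alternatives, with adjusted p up to 0.280. The count of genes lower at 24 h was 1 to 3 over the alternatives. NFE2L2 differed by 0.16 at 24 h (adjusted p = 0.177) and by 0.02 at 72 h (adjusted p = 0.866).

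**Figure D4:**
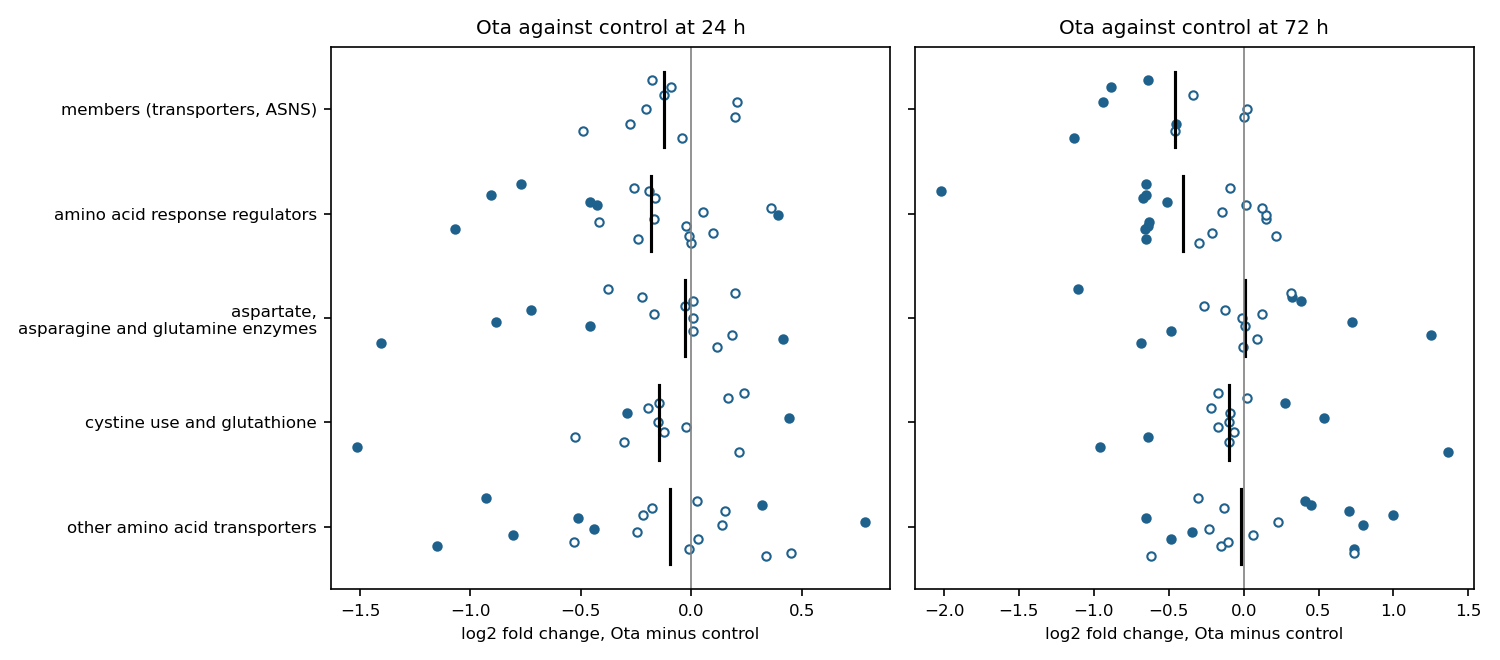
Log2 difference of Ota against control cells (horizontal axis) at 24 h, left, and 72 h, right, for each tested gene of the members and of 4 related lists, with the median of a list as a vertical bar and called genes filled. At 72 h the medians of the members (-0.46) and of the amino acid response regulators (-0.40) lie left of 0, and those of the other 3 lists lie between -0.10 and 0.01.

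The genes whose pattern was most like that of ASNS over the 12 arrays, members left out, were SARS1 (r = 0.993), CEBPG (0.991), ARG2 (0.989), MANF (0.989) and EPB41L4A-AS1 (0.989). For SLC7A11 they were HERPUD1 (r = 0.995), INHBE (0.995), TUBE1 (0.995), DDIT3 (0.993) and HSPA5 (0.992). ASNS and SLC7A11 were higher on every 72 h array than on every 24 h array, and a split of this kind raises r over the 12 arrays. Within the 6 arrays of 72 h, Ota and control together, r with ASNS ran from 0.942 for EPB41L4A-AS1 to 0.993 for ARG2, and r with SLC7A11 from 0.918 for TUBE1 to 0.985 for HSPA5. All of these genes but INHBE were called lower in Ota cells at 72 h, as ASNS and SLC7A11 were, so the Ota difference enters these values. Within the 6 arrays of 24 h the values were lower and more spread, from -0.134 for ARG2 to 0.929 for CEBPG with ASNS, and from 0.168 for DDIT3 to 0.674 for TUBE1 with SLC7A11. These are descriptions of 12 arrays, with no test.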

How the data were processed

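Gene expression was measured on 12 Affymetrix arrays of HK-2 cells, 3 biological replicates in each of 4 groups, grouped by the labels. The authors deposited log2 values per probe set that were made with GCRMA, per the submitters' processing notes; the GCRMA version is not given in the sources used here. GCRMA corrects the background and normalizes between arrays, which sets a floor near which values have no order. Symbols came from the platform annotation, updated through RefSeq (41037 probe sets). Of the 54675 probe sets, 41091 had 1 symbol. Genes were read from these sets only, which left out 62 control sets, 1801 with several symbols and 11721 with none.

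Each gene was read from its brightest single-symbol probe set, by the mean of the 12 arrays, and kept where that exceeded log2 4 on at least 3 arrays (10699 genes). limma 3.58.1 under R 4.3.3 estimated a mean for each of the 4 groups from the 12 arrays together, and p-values were adjusted over all genes tested by the Benjamini-Hochberg method; a call is an adjusted p below 0.05. The fit left 8 residual degrees of freedom. Probe sets were tested in the same way over 22477 sets. Values are mean ± SD or log2 difference ± SE, intervals are 95%, folds are linear. A p-value reflects the spread among these samples only, and the small number of arrays limits precision.

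The members, the gene lists and the tests were chosen with earlier results of these data known. The text names all members, up to 3 called genes with the smallest p from each of 4 related lists at 24 h and at 72 h, ATF4, EIF2AK4, DDIT3, TRIB3 and NFE2L2 whatever their values, and the 5 genes most correlated with ASNS and with SLC7A11. Arrays of the same replicate number deviated together in the 24 h comparison (correlations of 0.323 to 0.455 over 3 pairs), so the numbers pair the samples there, from the data alone. At 72 h (0.0674 to 0.268) and between times (0.0907 to 0.201 in Ota cells, 0.0800 to 0.246 in control cells) all correlations were positive, but not every pair exceeded 0.1. Over all 18 pairs of the same number the median was 0.212, against -0.115 for pairs of other numbers. Reported values are from the fit without pairing, save where the replicate block is named. The fit was tested on simulated data of the 24 h comparison over 10699 genes, where 82% of changes of 1 and 99% of changes of 2 on the log2 scale were recovered. The simulated noise was independent between arrays, with no pairing, and 100 genes were changed at each size. The real comparison had 31% of genes called, so these shares need not hold for it. Changes below 1 were not simulated. Alternatives were other scalings, filters and summaries of probe sets, a replicate block, other variance settings, fits on 2 groups and leaving out each array. Plots used matplotlib 3.10.9 (Python 3.11.15).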

Additional observations from a re-analysis of the deposited data

Results flagged for a closer look

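For ASNS and SLC3A2 the difference between Ota and control cells was itself different at 72 h and at 24 h, by the test of that difference in the limma fit. It was -1.09 ± 0.28 for ASNS (log2, adjusted p = 0.0199) and -1.14 ± 0.31 for SLC3A2 (adjusted p = 0.0234). All 3 Ota arrays lay below all 3 control arrays at 72 h for both genes, and the groups overlapped at 24 h. Without Ota replicate 1 at 72 h, the lowest Ota array for both genes, the values were -0.86 for ASNS (adjusted p = 0.0367) and -0.92 for SLC3A2 (adjusted p = 0.0488). Of 20 alternatives, the SLC3A2 call was lost in 4, with adjusted p up to 0.0727. The ASNS call was lost in 1 (adjusted p = 0.0606).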

How the results depend on the processing

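ASNS, SLC3A2 and SLC7A11 were called lower at 72 h in all 21 alternatives run. Leaving out 1 array at a time, the members called lower numbered 3 to 6 at 72 h, 0 to 1 at 24 h and 1 to 2 for the difference of the responses. Fitting only the arrays of the 2 groups left 3 members lower at 72 h. At 24 h 1 member, SLC38A2, was called lower with arrays shifted to a common median, with no filter, with probe sets averaged per gene and with trend and robust variance settings. For the difference of the responses, no filter left 1 member lower, SLC6A9, and the mean of probe sets gave 1 higher, SLC38A2. Shifting the arrays to a common median of the genes tested, chosen after seeing the data, gave 1881 genes higher at 24 h, 1187 lower for the difference and 2008 lower over time in Ota cells. Among probe sets, the common median gave 0 members higher and 4 lower at 24 h and 1 higher for the difference, the median of the genes tested gave 0 lower at 24 h, and no filter gave 0 higher at 24 h, 4 lower at 72 h and 1 lower for the difference. The cause was not tested.

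Signs turned for values that were not called, except EIF2S1 and GMPS. At 72 h repeated quantile normalization gave -0.026 for SLC38A1, -0.019 for SLC38A2 and -0.019 for NFE2L2, and SLC38A1 was -0.017 with the median of the genes tested and -0.0059 with the mean of probe sets. The difference of the responses of SLC1A4 was -0.046, -0.11 and -0.029 under these 3 settings. At 24 h the median of the genes tested gave 0.080 for ASNS and 0.033 for SLC7A11, and the mean of probe sets gave -0.030 for EIF2AK4, 0.31 for EIF2S1 and 0.36 for GMPS. Leaving out 1 array gave ranges at 24 h of -0.19 to 0.090 for ASNS, -0.0066 to 0.33 for SLC3A2 and -0.28 to 0.046 for SLC7A11. At 72 h they were -0.065 to 0.058 for SLC38A1, -0.0076 to 0.050 for SLC38A2, -0.040 to 0.35 for EIF2AK4 and -0.023 to 0.097 for NFE2L2, and for the difference -0.16 to 0.23 for SLC1A4.

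With the replicate block, 1221 genes were higher and 2594 lower at 24 h, and 0 members were called at 24 h and 5 at 72 h, as without it; the block moved no count of genes by over 1.5 times. Probe sets near the floor, such as that of SLC6A9, have folds of uncertain size.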
